A study of Homo sapiens and Mus musculus with 41 samples.

Results

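PC9 is a human lung adenocarcinoma line that depends on an activated epidermal growth factor receptor, and its leptomeningeal metastatic derivative (Lep, 2 libraries) was set against the parental line (Par, 3 libraries) across all genes. These 5 libraries are part of 41 in a series that profiled 4 tumour models, each at parental, intermediate, leptomeningeal and brain metastatic stages. Genes entered the comparison when their normalized count was at least 10 in at least 2 of the 10 PC9 libraries, which kept 14475 of the 23368 genes in the table and left 8893 below the filter. The other PC9 groups, an intermediate stage derivative (Int, 2 libraries) and a brain metastatic derivative (BrM, 3 libraries), are given beside the Lep and Par values for reference.

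All of these cells, Par included, carried GFP and grew in RPMI1640 medium with serum on plain plastic. To make the leptomeningeal cells, mice with leptomeningeal metastases were killed, cells were washed out of the leptomeningeal space, and cultures were kept until every cell was GFP positive and then passaged before RNA was taken. The values therefore describe cultured tumour cells, not cells in the cerebrospinal fluid. The labels give no separate procedure for Int or BrM and do not say how many animals gave the Lep cells. They call the Par replicates technical and the Int and Lep replicates a mixture of biological and technical, without saying which, so the p-values below measure the spread between these libraries. In bulk RNA a lower value in fewer cells and less RNA in every cell cannot be told apart.

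The leptomeninges are the membranes that hold the cerebrospinal fluid, a space poor in protein, lipid and iron that tumour cells reach from the blood through the choroid plexus or along vessels. Complement C3 made by tumour cells has been described to act on choroid plexus epithelium, and lipocalin-2 (LCN2) binds siderophores that carry iron. In lung epithelium both belong to the acute-phase genes that respond to NF-kB and interferon signals, pathways in which cytokine receptors activate transcription factors that bind short promoter motifs.

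The Lep libraries held 32709007 and 28657904 recovered reads, and the Par libraries 18553895, 18763703 and 16792027. On the first principal component, which carried 62.2% of the variance, the Lep libraries scored 57.89 and 68.62 and the Par libraries between -25.29 and -21.3, with Int at 49.15 and 55.35 and BrM from -57.67 to -50.43. The pair of Lep libraries differed from each other more than any Par pair did: 739 genes differed over 2-fold between them, against 277 to 325 genes in the 3 Par pairs. Transcript length also moved with the groups. A library's deviation from the gene means had a Spearman rho with the longest annotated transcript of -0.52 and -0.43 in Lep (Int -0.54 and -0.49), against 0.38 to 0.4 in Par (BrM 0.32 to 0.48), described across genes, and its part in the calls cannot be told apart from that of the stage.

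Of the 14475 genes, 962 (6.65%) were called higher in Lep and 1229 (8.49%) lower, 2191 (15.1%) in all, at an adjusted p under 0.05 in limma and a log2 fold change of at least 1 in size. The median log2 fold change was 0.02. The Lep and Par libraries did not overlap for 10711 genes (74.0%), so a lack of overlap is the common case here. When the trend with length and GC content was removed from each library, 876 genes were called higher and 921 lower, and 1468 of the 2191 calls (67.0%) were kept with the same direction. Below, a length-corrected value or count is this second one. Log2 fold changes are Lep over Par on log2(normalized count + 1) ± SE.

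**Figure D1:**
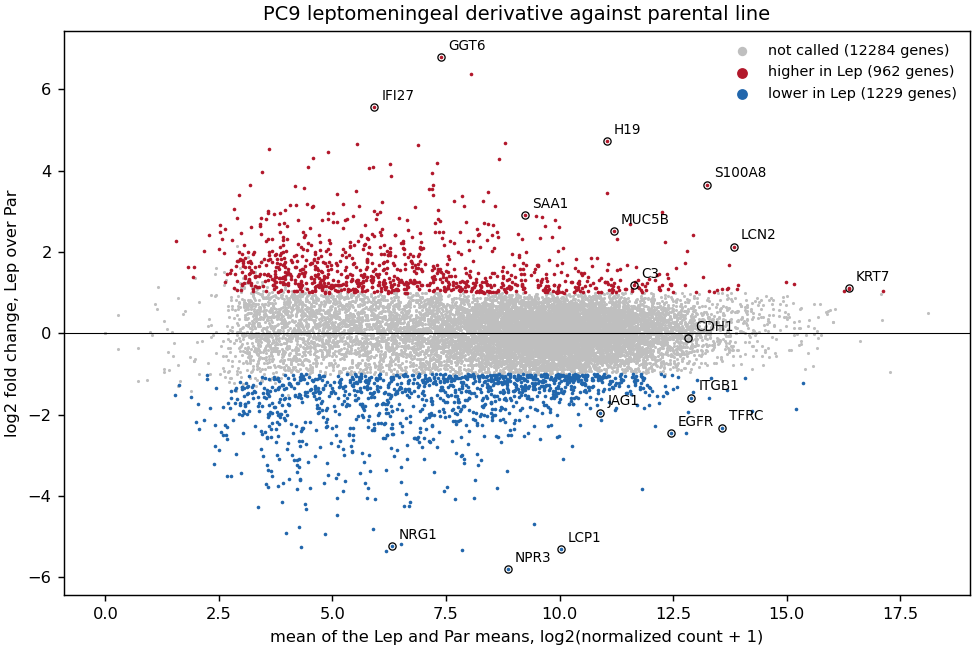
Each point is 1 of the 14475 genes tested, with the mean of the Lep and Par means on the x axis, log2(normalized count + 1), and the log2 fold change of Lep over Par on the y axis. Red points are the 962 genes called higher in Lep and blue points the 1229 called lower; circled genes are described in the text, with GGT6 at 6.80 and NPR3 at -5.80 at the ends of the scale.

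**Figure D2:**
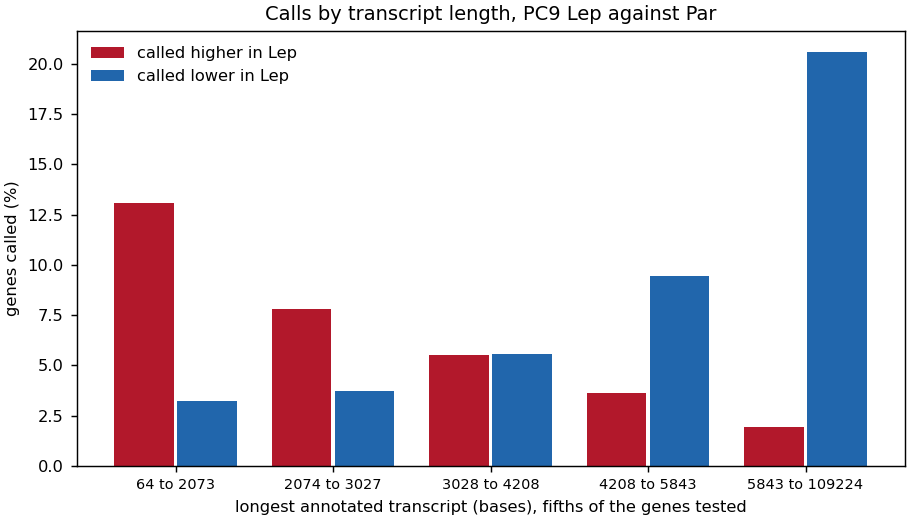
Bars give the percentage of genes called higher (red) or lower (blue) in Lep than in Par, in 5 bins of equal size by the length of the longest annotated transcript. In the bin of shortest transcripts 13.1% were called higher and 3.2% lower, and in the bin of longest transcripts 1.91% were called higher and 20.6% lower.

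The largest rises were in epithelial enzymes, squamous differentiation genes and an imprinted RNA. GGT6, a member of the gamma-glutamyltransferase family that acts on glutathione, had 220 and 440 normalized counts in Lep, against 3.68, 3.66 and 0 in Par, a log2 fold change of 6.80 ± 0.63 (limma, adjusted p = 1.3e-06). CASP14, the caspase of skin cornification, had 417 and 624 in Lep, against 8.58, 3.66 and 4.05 in Par (6.39 ± 0.46, limma adjusted p = 1.7e-07). H19, a maternally expressed noncoding RNA, had 4260 and 3840 in Lep, against 146, 162 and 150 in Par (4.72 ± 0.16, limma adjusted p = 1.5e-09). GGT6, CASP14 and H19 were chosen among genes without overlap of Lep and Par, so their separation is no added result. The Par values of GGT6 and CASP14 are a few reads each, so their folds are imprecise. TRIM31, a ubiquitin ligase, had 618 and 1100 in Lep, against 28.2, 39.1 and 27 in Par. SELENBP1, a selenium-binding methanethiol oxidase, had 736 and 807 in Lep, against 33.1, 50.1 and 35.1 in Par. MGP, the matrix Gla protein that inhibits calcification, differed between the Lep libraries, at 316 and 137, against 12.3, 11 and 2.7 in Par. Its log2 fold change of 4.64 became 5.24 with Lep replicate 1 alone and 4.04 with Lep replicate 2 alone.

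DIO3, the deiodinase that inactivates thyroid hormone, CALML5, a calmodulin-like protein of skin, SERPINB4, a squamous serpin, ITGAM, the alpha chain of a leukocyte integrin, and C6orf223 complete the 15 largest rises with IFI27, KRT13, KRT17 and S100A8, which are described with their groups. CALML5 had 102 and 107 in Lep, against 7.36, 4.89 and 4.05 in Par, 4.07 ± 0.41 on the log2 scale and 3.24 length-corrected. Reads of SERPINB4 and its near copy SERPINB3 may be split between them, so its values are uncertain.

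The largest falls took in growth factor, receptor, glycosylation and cytoskeletal genes. NPR3, the natriuretic peptide clearance receptor, had 27.1 and 8.36 normalized counts in Lep, against 954, 833 and 931 in Par (-5.80 ± 0.36, limma adjusted p = 6e-08, and -5.01 without Lep replicate 2). LCP1, the actin-bundling protein L-plastin, had 52.8 and 47.6 in Lep, against 2060, 2050 and 1980 in Par (-5.31 ± 0.07, limma adjusted p = 5.3e-14). KLF12, a zinc finger transcription factor, had 3.67 and 4.18 in Lep, against 163, 180 and 189 in Par, -5.18 on the log2 scale and -4.43 length-corrected. NPR3, LCP1 and KLF12 were chosen for a large fall without overlap of Lep and Par. Their Int means lay between the Lep and Par values: 46.3 for NPR3, 768 for LCP1 and 27.4 for KLF12. CHRDL1, an antagonist of BMP ligands, had 3.67 and 2.51 in Lep, against 114, 98.9 and 128 in Par. TLR4, the receptor for lipopolysaccharide, had 8.07 and 12.5 in Lep, against 204, 182 and 205 in Par, -4.16 on the log2 scale and -3.38 length-corrected.

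GALNT13, GALNT14 and GALNTL4, 3 transferases of the family that starts O-linked glycosylation, all fell. GALNT14 had 15.4 and 6.69 in Lep, against 449, 471 and 428 in Par. GALNTL4 had 5.13 and 6.69 in Lep, against 119, 122 and 104 in Par. For GALNT13 the Lep libraries stood at 10.3 and 0, against 147, 156 and 109 in Par, and the log2 fold change of -5.35 was -3.60 without Lep replicate 2. BCAT1, the cytosolic branched-chain aminotransferase, and PDGFC, a platelet-derived growth factor, were lowest in Lep replicate 2. BCAT1 had 361 and 5.02 in Lep, against 1250, 1150 and 1190 in Par, so that its log2 fold change of -4.68 ± 1.07 was -1.73 without that library. Length-corrected it was -3.97. PDGFC had 35.2 and 1.67 in Lep, against 183, 203 and 169 in Par, -4.24 on the log2 scale and -2.36 without Lep replicate 2. KLHL11, TMED8, CYFIP2 and ZNF618 were also among the 15 largest falls, with log2 fold changes from -4.24 to -4.04, and CYFIP2 was at -3.27 without Lep replicate 2.

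**Figure D3:**
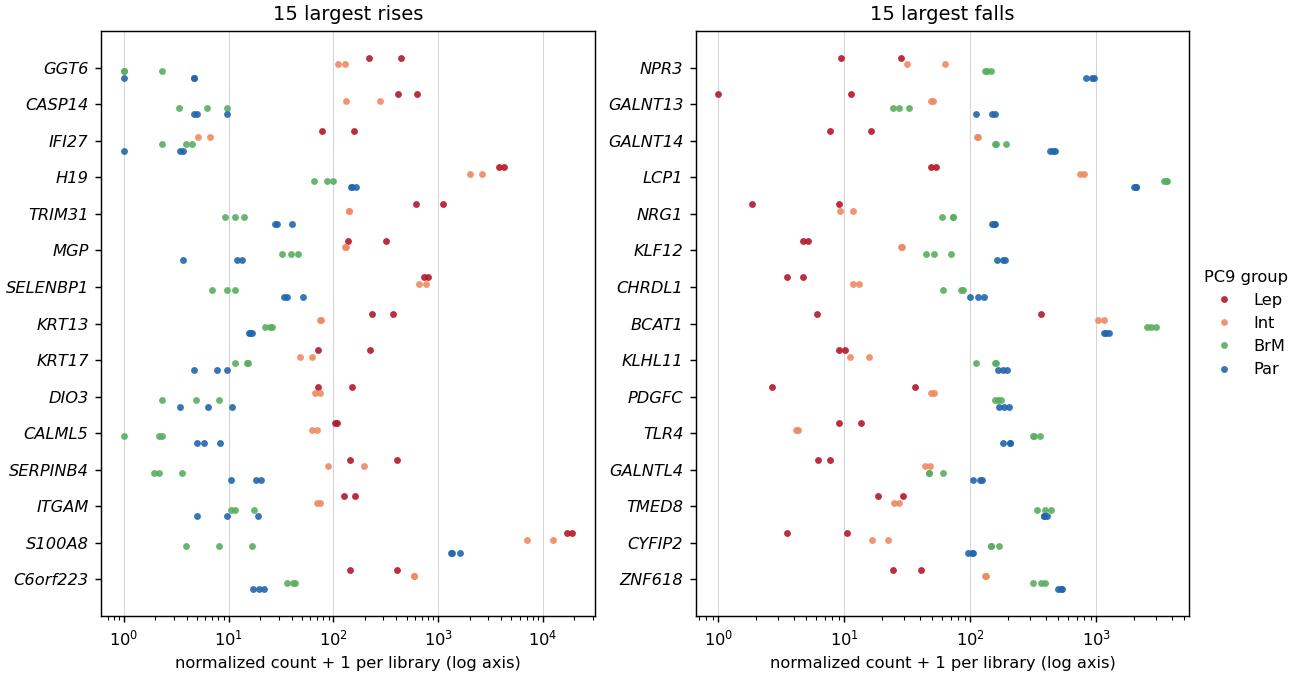
Points give the normalized count + 1 of each library on a log axis for the 15 genes with the largest rise (left panel) and the 15 with the largest fall (right panel), with Lep in red, Int in orange, BrM in green and Par in blue from top to bottom within a gene. Lep and Par do not overlap in any of the 30 genes, because the genes were chosen that way; the Lep pair spreads widely in BCAT1 and PDGFC.

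Epidermal growth factor receptor RNA was several-fold lower in Lep. EGFR, which the labels name as elevated in this line, had 1530 and 1930 normalized counts in Lep, against 9150, 9410 and 9750 in Par. The log2 fold change was -2.46 ± 0.11 (limma, adjusted p = 9.1e-09) and -1.79 length-corrected, still called. Int had a mean of 1730 and BrM of 13200, so Lep and Int shared the low level. NRG1, the ligand of the receptors ERBB3 and ERBB4, had 8.07 and 0.836 in Lep, against 152, 148 and 157 in Par (-5.23 ± 0.47, limma adjusted p = 9.5e-07, and -4.08 without Lep replicate 2). EGR1, an immediate early gene induced by this pathway, had 4200 and 3960 in Lep, against 645, 749 and 1110 in Par (2.33 ± 0.18, limma adjusted p = 3e-07). Of 28 tested members of the list of ERBB receptors, ligands and feedback genes, 1 was called higher and 3 lower, with a median of 0, and over all genes 6.65% were higher and 8.49% lower. The counts were 4 higher and 4 lower length-corrected, 3 and 5 without Lep replicate 1, and 2 and 4 without Lep replicate 2. The third lower gene was the ligand EPGN. MET, another receptor tyrosine kinase, had 1760 and 2190 in Lep, against 1390, 1350 and 1360 in Par, 0.52 on the log2 scale and not called, but 1.01 and called after length correction. AXL, a receptor linked to resistance to EGFR inhibitors, had 138 and 26.7 in Lep, against 109, 96.5 and 122 in Par, and was not called (-0.82 ± 0.44). Its Lep libraries lay on either side of Par: without Lep replicate 1 it was called lower at -1.98, and without Lep replicate 2 it was at 0.34.

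Iron genes moved in both directions. LCN2 had 16800 and 31300 normalized counts in Lep, against 4950, 5710 and 5060 in Par, a log2 fold change of 2.13 ± 0.18 (limma, adjusted p = 6e-07) and 1.46 length-corrected. Its receptor SLC22A17 was below the filter, with 2.2 and 4.18 in Lep, against 0, 1.22 and 0 in Par. TFRC, the transferrin receptor that imports iron, had 4170 and 4010 in Lep, against 20400, 20500 and 20300 in Par (-2.32 ± 0.08, limma adjusted p = 1.5e-09). Both Lep libraries thus stood above Par for LCN2 and below it for TFRC, while 74.0% of all genes tested had no overlap either. SLC40A1, the iron exporter ferroportin, had 231 and 199 in Lep, against 697, 608 and 674 in Par, -1.61 on the log2 scale. HMOX1, which frees iron from heme, had 743 and 444 in Lep, against 2080, 1790 and 1840 in Par, -1.73 on the log2 scale. The list had 20 tested members, with a median of -0.06. Called higher were 3 (LCN2, the ferroxidase ceruloplasmin CP and the ferrireductase STEAP4), and 3 were called lower. That was 15% each way, against 6.65% higher and 8.49% lower over all genes.

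Complement genes of the alternative pathway were higher in Lep. C3, the central component, had 5020 and 3920 normalized counts in Lep, against 1860, 2020 and 1960 in Par (1.19 ± 0.11, limma adjusted p = 1.6e-06). CFB, the protease subunit that joins C3b, had 5350 and 4640 in Lep, against 1540, 1710 and 1580 in Par (1.63 ± 0.08, limma adjusted p = 1.7e-08). CFD, the protease that cleaves factor B, had 1260 and 2090 in Lep, against 266, 221 and 216 in Par, 2.79 ± 0.19 on the log2 scale and 2.10 length-corrected (limma, adjusted p = 1.2e-07). All Lep values lay above all Par values for C3, CFB and CFD. Lep and Par did not overlap for 74.0% of all genes tested, so this is the common case. The Int means were 5830, 6620 and 1060, against Lep means of 4470, 4990 and 1670. C3 and CFB were thus lower and CFD higher in Lep than in Int, and none was called between these stages. Of 18 tested complement genes 5 were called higher (27.8%, against 6.65% over all genes) and none lower, with a median of 0.36. The other called members were SERPING1, the C1 inhibitor, and C5AR1, the C5a receptor, both lost with length correction. Then 3 were called higher; without Lep replicate 1 there were 3 higher and 2 lower, and without Lep replicate 2 there were 6 higher.

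Acute-phase and chemokine genes of the NF-kB list were also higher in Lep. SAA1, a serum amyloid A protein, had 1060 and 1080 normalized counts in Lep, against 148, 150 and 130 in Par (2.90 ± 0.16, limma adjusted p = 3e-08). IL32, a cytokine, had 121 and 186 in Lep, against 17.2, 19.5 and 24.3 in Par (2.84 ± 0.29, limma adjusted p = 3.2e-06). CCL20, the chemokine that attracts CCR6-bearing lymphocytes, had 129 and 115 in Lep, against 39.2, 31.8 and 37.8 in Par (1.73 ± 0.42, limma adjusted p = 0.0029). In BrM the same genes had means of 4.1, 22 and 1.36. Of 31 tested members 9 were called higher and none lower, with a median of 0.58, against 6.65% and 0.02 over all genes. Length correction gave 8 higher and a median of 0.47, and without Lep replicate 1 there were 11 higher and 1 lower. SAA2, TNF, TNFSF10, ICAM1, NFKBIA and NFKB2 were the other called members, and the last pair was not called length-corrected, at 0.83 and 0.92. SAA1 and SAA2 are near copies, and their reads may be split. SAA1 is 2.30 length-corrected.

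Promoters of LCN2, of 2 NF-kB list members and of IFI27 are shown as examples of genes called higher with a match to the motif of their pathway. LCN2 and CFB were searched from outside the NF-kB list and enter neither list count below. CFB gave no match to show. Each line gives the 250 bases before the annotated start site from RefSeq (GRCh38.p14), 5′ to 3′ on the gene's strand, with matches to the NF-kB consensus or, for IFI27, the interferon response core (GAAA, any 2 bases, GAAA) in capitals. Both strands were searched, and overlapping matches are joined.
LCN2, chr9:128149203-128149452, plus strand: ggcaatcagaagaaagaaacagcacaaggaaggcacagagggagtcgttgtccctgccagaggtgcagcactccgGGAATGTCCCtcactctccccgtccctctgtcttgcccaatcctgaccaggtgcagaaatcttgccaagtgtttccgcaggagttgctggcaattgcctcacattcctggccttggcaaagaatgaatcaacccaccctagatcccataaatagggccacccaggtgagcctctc
IL32, chr16:3065153-3065402, plus strand: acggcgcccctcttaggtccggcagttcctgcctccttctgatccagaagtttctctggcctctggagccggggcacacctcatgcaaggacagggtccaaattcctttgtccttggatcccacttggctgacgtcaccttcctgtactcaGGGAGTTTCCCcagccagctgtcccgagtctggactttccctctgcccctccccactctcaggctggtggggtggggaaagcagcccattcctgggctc
CCL20, chr2:227813592-227813841, plus strand: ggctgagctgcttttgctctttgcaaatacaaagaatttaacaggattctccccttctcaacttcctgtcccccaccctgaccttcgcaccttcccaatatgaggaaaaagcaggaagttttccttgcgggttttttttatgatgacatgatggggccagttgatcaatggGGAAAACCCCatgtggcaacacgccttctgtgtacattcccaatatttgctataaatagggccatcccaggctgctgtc
IFI27, chr14:94110486-94110735, plus strand: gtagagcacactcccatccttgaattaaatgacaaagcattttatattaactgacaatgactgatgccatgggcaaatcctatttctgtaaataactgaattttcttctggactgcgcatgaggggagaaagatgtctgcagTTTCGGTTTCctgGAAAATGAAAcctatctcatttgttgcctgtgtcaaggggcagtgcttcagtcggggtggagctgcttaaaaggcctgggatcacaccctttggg
The NF-kB consensus occurred in 1828 of 35116 promoters in the table (5.21%), and in any promoter of 1715 of 27305 genes (6.28%). It occurred in 4 of the 7 called members of the NF-kB list that had an entry, against 7 of the 17 members tested but not called. The interferon core occurred in 1061 of the 35116 promoters (3.02%) and in any promoter of 1014 of 27305 genes (3.71%). It occurred in 8 of 11 called interferon-stimulated genes and in 11 of 18 that were not called. The list counts are by gene, so the shares of genes are the ones to set beside them. A match describes these letters in this window and not binding by the factor.

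Interferon-stimulated genes were higher in Lep in larger number. IFI27, a mitochondrial protein induced by type I interferon, had 156 and 77.7 normalized counts in Lep, against 2.45, 0 and 2.7 in Par (5.57 ± 0.60, limma adjusted p = 4.4e-06), and it was at 4.88 in Int. GBP2, a guanylate-binding protein, had 561 and 782 in Lep, against 117, 162 and 111 in Par (2.36 ± 0.24, limma adjusted p = 2.6e-06). XAF1, a proapoptotic gene induced by interferon, had 127 and 103 in Lep, against 14.7, 24.4 and 17.6 in Par (2.56 ± 0.31, limma adjusted p = 1.1e-05). Of 39 tested members 16 were called higher (41.0%, against 6.65% over all genes) and none lower, with a median of 0.71. After length correction 12 were higher and the median was 0.68, and there were 16 higher and 2 lower without Lep replicate 1, and 15 higher and none lower without Lep replicate 2. BST2, OASL, OAS1, IRF7, IFIT1, MX2, IFI6, IFI35, IFI44, CXCL10 and IFITM1 to IFITM3 were the other called members. IRF7, IFI35, IFITM3 and CXCL10 were not called length-corrected, and reads may be split among the IFITM genes.

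The antigen presentation list had 20 tested members, with a median of 0.39. Of these 4 were called higher (20%, against 6.65% over all genes), CD74, HLA-F, PSMB10 and PSMB8, and none lower. PSMB8, a subunit of the immunoproteasome, had 2600 and 2300 in Lep, against 1100, 1170 and 1130 in Par. PSMB10, another such subunit, had 1320 and 1280 in Lep, against 526, 557 and 614 in Par. After length correction 1 member was called higher, without Lep replicate 1 there were 4 higher and 1 lower, and PSMB8, PSMB10 and HLA-F were at 0.86, 0.58 and 0.76.

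Keratin and squamous differentiation genes had the second highest share of calls among the lists shown. Over all genes 6.65% were called higher and 8.49% lower. KRT13, a keratin of stratified mucosa, had 367 and 234 normalized counts in Lep, against 15.9, 14.7 and 14.9 in Par (4.19 ± 0.22, limma adjusted p = 1.8e-08). SPRR3, a cornified envelope protein, had 415 and 856 in Lep, against 51.5, 44 and 63.5 in Par (3.48 ± 0.26, limma adjusted p = 2e-07). S100A8, a calcium-binding alarmin, had 16800 and 19100 in Lep, against 1350, 1610 and 1320 in Par, 3.66 ± 0.42 on the log2 scale and 3.00 length-corrected (limma, adjusted p = 7.9e-06). BrM had a mean of 8.57 for S100A8, below every other PC9 library. KRT17, a stress keratin, had 222 and 70.2 in Lep, against 8.58, 3.66 and 6.75 in Par; its log2 fold change of 4.17 was 3.34 without Lep replicate 1. Of 26 tested members 14 were called higher (53.8%) and 1 lower (KRT6A, not called without Lep replicate 2, whose reads may be split with its near copies), with a median of 1.02; after length correction 9 were higher, 1 was lower and the median was 0.56. The simple keratins KRT7, KRT18 and KRT19 were called higher at 1.11, 1.08 and 1.03 but not after length correction, at 0.58, 0.73 and 0.43.

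Mucins and secreted airway proteins had the highest share of higher calls. MUC5B, a gel-forming airway mucin, had 3640 and 4340 normalized counts in Lep, against 623, 761 and 720 in Par (2.51 ± 0.12, limma adjusted p = 1.5e-08). BPIFB1, a secreted airway defence protein, had 633 and 706 in Lep, against 113, 115 and 126 in Par. MUC1, a membrane mucin, had 1900 and 1290 in Lep, against 332, 462 and 373 in Par (2.02 ± 0.16, limma adjusted p = 4e-07). MUC4, another membrane mucin, had 3780 and 2750 in Lep, against 904, 978 and 1110 in Par. No Lep library overlapped Par for any of these 4 genes, as was so for 74.0% of all genes tested. Of the 12 tested members 9 were called higher (75%, against 6.65% over all genes) and none lower, with a median of 1.59. Most of the list, 14 of its 26 genes in the table, fell below the filter, and members that passed it only through Lep had to differ. Length correction left 7 higher, with a median of 1.47.

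Lung identity was mixed. Of 19 tested lung epithelial identity genes 5 were called higher (26.3%, against 6.65% over all genes) and 1 lower. The 5 were HOPX, MUC1, KRT7, KRT18 and KRT19. All but HOPX are also counted in the keratin or mucin list and among the markers below, so these counts are not separate results. Length-corrected, 2 were higher and 1 lower. The lower gene was the transcription factor FOXA2, with 3.67 and 1.67 in Lep, against 34.3, 28.1 and 35.1 in Par. Its log2 fold change was -3.24, and -3.58 length-corrected, and its Lep values are a few reads each. NKX2-1, the transcription factor that marks lung adenocarcinoma, was below the filter, with 1.47 and 1.67 normalized counts in Lep, against 3.68, 1.22 and 0 in Par, near 0 in both groups. Of 10 marker genes of lung adenocarcinoma cells, 9 were tested. Of these 4 were called higher (MUC1, KRT7, KRT18 and KRT19) and 1 lower (EGFR), against 1 higher and 1 lower length-corrected. The summed level of the markers, not length-corrected, was 559000 and 520000 in Lep, against 273000 to 291000 in Par. KRT7, KRT18 and KRT19 made up most of it, averaging 116000, 115000 and 106000 in Lep, against 53600, 54100 and 51900 in Par. CDH1, the epithelial cadherin, had 6470 and 7450 in Lep, against 7220, 7910 and 7380 in Par, and was not called (-0.11 ± 0.07). VIM, the mesenchymal filament vimentin, had 54.3 and 23.4 in Lep, against 50.3, 64.7 and 39.2 in Par, and was not called either (-0.48 ± 0.33). Without Lep replicate 1 it was called lower at -1.07, and without Lep replicate 2 it was at 0.11.

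Genes that usually mark host cells were looked at because the leptomeningeal cells came from mice. The counts are of human genes, and the part of host RNA in them was not tested. Over all genes 6.65% were called higher and 8.49% lower. Each marker set below had few tested members, so its counts say little beside those shares. Of 12 macrophage and microglia markers 4 were tested and 2 were called higher, CD14 and ITGAM. CD14, a lipopolysaccharide co-receptor, had 189 and 206 normalized counts in Lep, against 47.8, 35.4 and 58.1 in Par. ITGAM had 126 and 160 in Lep, against 8.58, 18.3 and 4.05 in Par. The defining leukocyte gene PTPRC was at 5.13 and 5.02 in Lep, against 2.45 to 5.4 in Par, and TYROBP was at 0 in all 5 libraries. The summed macrophage level was 4700 and 3370 in Lep, against 3180 to 3320 in Par. Of 12 endothelial markers 3 were tested and 2 were called higher. PECAM1, a cell adhesion molecule, had 461 and 549 in Lep, against 92, 94 and 90.5 in Par. CDH5, the endothelial cadherin, had 370 and 577 in Lep, against 170, 214 and 184 in Par and was not called without Lep replicate 2, at 0.97. EMCN and ERG were at 0 in all 5 libraries. Of the fibroblast and pericyte markers 3 of 6 tested were called higher, and 1 when either Lep library was left out, with DCN and LUM at 0 in all 5 libraries. None of 2 tested lymphocyte markers was called, and among neuron and glia markers 1 of 4 was called lower. Of 4 tested choroid plexus and ependyma markers 2 were called higher and 1 lower, and 1 higher and none lower length-corrected.

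Adhesion, matrix and protease genes changed in both directions. MCAM, an adhesion molecule of vessels and tumours, had 1570 and 1920 normalized counts in Lep, against 251, 276 and 320 in Par (2.62 ± 0.10, limma adjusted p = 5.1e-09). ITGB1, the beta chain of most matrix-binding integrins, had 3600 and 4030 in Lep, against 11300, 11600 and 11300 in Par (-1.58 ± 0.07, limma adjusted p = 6.8e-09). Its partners ITGA2 and ITGA6 were also called lower, at -1.02 and -1.0, but not length-corrected, at -0.42 and -0.61, nor without Lep replicate 1. ITGB2, the leukocyte beta chain that pairs with ITGAM, was called higher, with 248 and 478 in Lep, against 112, 134 and 123 in Par. The integrin and adhesion list had 4 of 26 tested members higher and 4 lower, and 5 higher and 2 lower length-corrected. The first counts are 15.4% each way, against 6.65% higher and 8.49% lower over all genes. CEACAM5, the carcinoembryonic antigen, was called higher, yet its Lep libraries stood at 238 and 2690, against 108, 133 and 91.8 in Par, so that its log2 fold change of 2.86 was 1.11 without Lep replicate 2.

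Collagens and matrix genes had 2 of 34 tested members higher (5.88%) and 7 lower (20.6%), with a median of -0.18. The shares over all genes, for these and for the protease and junction counts below, were 6.65% higher and 8.49% lower. THBS1, the matrix protein thrombospondin-1, had 2240 and 955 in Lep, against 7210, 6980 and 7360 in Par, -2.29 on the log2 scale and -1.68 without Lep replicate 2. COL4A1, a basement membrane collagen, had 593 and 406 in Lep, against 1420, 1360 and 1470 in Par, -1.52 on the log2 scale. COL12A1 was at -2.58, at -1.85 length-corrected and at -1.88 without Lep replicate 2. COL17A1, a hemidesmosomal collagen, was higher with 62.3 and 154 in Lep, against 15.9, 17.1 and 8.1 in Par. Among proteases, 6 of 33 were called higher and 3 lower, the lower count being 5 without Lep replicate 1. PLAT, tissue plasminogen activator, had 1320 and 635 in Lep, against 177, 187 and 186 in Par, 2.31 on the log2 scale. The kallikrein KLK10, the transmembrane serine protease TMPRSS4 and the cathepsin CTSS were called higher at 2.01, 1.60 and 1.61 on the log2 scale. Of 32 junction and polarity genes 1 was called higher (RAB25) and 3 lower (MARVELD2, GRHL2 and OCLN), and MARVELD2 alone remained called after length correction.

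WNT and Notch pathway genes had the highest share of lower calls. Over all genes 6.65% were called higher and 8.49% lower. JAG1, a Notch ligand, had 849 and 710 normalized counts in Lep, against 3010, 2910 and 3110 in Par (-1.95 ± 0.08, limma adjusted p = 5.1e-09). WNT5A, a ligand of noncanonical WNT signalling, had 547 and 557 in Lep, against 1820, 1850 and 1830 in Par (-1.73 ± 0.10, limma adjusted p = 4.3e-08). AXIN2, a feedback target of beta-catenin, had 27.9 and 35.1 in Lep, against 103, 104 and 109 in Par (-1.72 ± 0.19, limma adjusted p = 4.4e-06). HES1, a Notch target, was higher, with 1850 and 2240 in Lep, against 536, 590 and 583 in Par (1.84 ± 0.09, limma adjusted p = 1.5e-08). Of 37 tested members 5 were called higher (13.5%) and 12 lower (32.4%), with a median of -0.11; length correction left 3 higher and 8 lower, with a median of -0.23. Among TGF-beta, BMP and YAP genes 2 of 29 were called higher and 4 lower, and without Lep replicate 1 there were 2 higher and 7 lower. BMP4 had 106 and 25.9 in Lep, against 223, 202 and 208 in Par, and its log2 fold change of -1.98 was -0.98 and no longer called without Lep replicate 2. BMP2 had 63.1 and 75.2 in Lep, against 159, 175 and 169 in Par, -1.27 on the log2 scale. BMP7 had the largest fall of these called genes, with 0 and 0 in Lep, against 31.9, 34.2 and 47.3 in Par. Its log2 fold change was -5.26, and -5.28 length-corrected, but Lep values of 0 make its size imprecise.

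Drug and redox defence genes had 2 of 39 tested members called higher and 8 lower (20.5%), with a median of -0.05. The shares over all genes were 6.65% higher and 8.49% lower. Length correction gave 2 higher and 5 lower, with a median of -0.26, and without Lep replicate 2 there were also 5 lower. CYP1B1, a cytochrome P450, had 3690 and 2420 normalized counts in Lep, against 11400, 11200 and 11900 in Par (-1.94 ± 0.18, limma adjusted p = 1.1e-06). UGT1A6, a glucuronosyltransferase, had 838 and 684 in Lep, against 1710, 1790 and 1720 in Par, and it shares exons with other UGT1A genes, so its reads are uncertain. AKR1C1, an aldo-keto reductase with near copies, was at -1.21 and, length-corrected, -0.72 and not called. SLC7A11, the cystine importer, had 5010 and 4970 in Lep, against 15300, 14500 and 15400 in Par, -1.59 on the log2 scale; length-corrected it was -0.89 and not called. Imprinted and cancer-testis genes had 1 of 14 tested members higher (H19) and 2 lower (PEG10 and NNAT), and 4 higher and 2 lower without Lep replicate 1. PEG10, a retrotransposon-derived imprinted gene, had 1240 and 829 in Lep, against 3640, 3620 and 3920 in Par.

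S100 and annexin genes had 5 of 18 tested members called higher (27.8%, against 6.65% over all genes) and 1 lower, but 2 higher and 1 lower length-corrected. S100A4, a calcium-binding protein of motile cells, had 731 and 502 normalized counts in Lep, against 94.4, 123 and 119 in Par, 2.43 on the log2 scale and 1.75 length-corrected. Mesenchymal genes had 5 of 17 called higher (29.4%) and none lower, with a median of 0.06. That balance rested on 1 library: without Lep replicate 1 there were 2 higher and 4 lower, and length correction gave 4 higher and 2 lower. TNC, the matrix protein tenascin-C, was called among these although its Lep libraries stood at 1700 and 298, against 237, 228 and 208 in Par; without Lep replicate 1 it was at 0.41 and not called.

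Of 34 cell cycle and replication genes 1 was called lower (TYMS, the thymidylate synthase, which sat at the threshold and was not called by edgeR) and none higher, with a median of -0.10. MKI67, the proliferation marker, had 8060 and 7010 normalized counts in Lep, against 9680, 10000 and 10600 in Par, and was not called (-0.42, and 0.29 length-corrected). Hypoxia and glycolysis genes had 3 of 33 called higher (9.09%), against 6.65% higher and 8.49% lower over all genes. Counts near those shares describe no change of a list. Of the lists that follow, some lay farther from them, on few genes each. Called higher were 15.8% of brain metastasis genes, 13% of p53 targets and 12.5% of HOX and other developmental genes. Called lower were 14.3% of neuronal genes. No list was tested as a set. CA9, a carbonic anhydrase, led the 3 with 254 and 883 in Lep, against 62.5, 97.7 and 59.4 in Par. Amino acid and unfolded protein stress genes had 1 of 28 higher and 1 lower, and 2 higher and none lower length-corrected. Genes reported for brain metastasis had 3 of 19 higher and 1 lower, and 3 and 3 without Lep replicate 1. Semaphorins and ephrins had 2 of 35 each way, and 4 higher and 3 lower without Lep replicate 1. For p53 targets the count was 3 of 23 higher and 1 lower, and 1 each way length-corrected or without Lep replicate 2. HOX and other developmental transcription factors had 4 of 32 higher and 1 lower, and 4 higher and none lower length-corrected. Neuronal and neuroendocrine genes had 2 of 14 called lower, and 4 lower length-corrected or without Lep replicate 2.

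**Figure D4:**
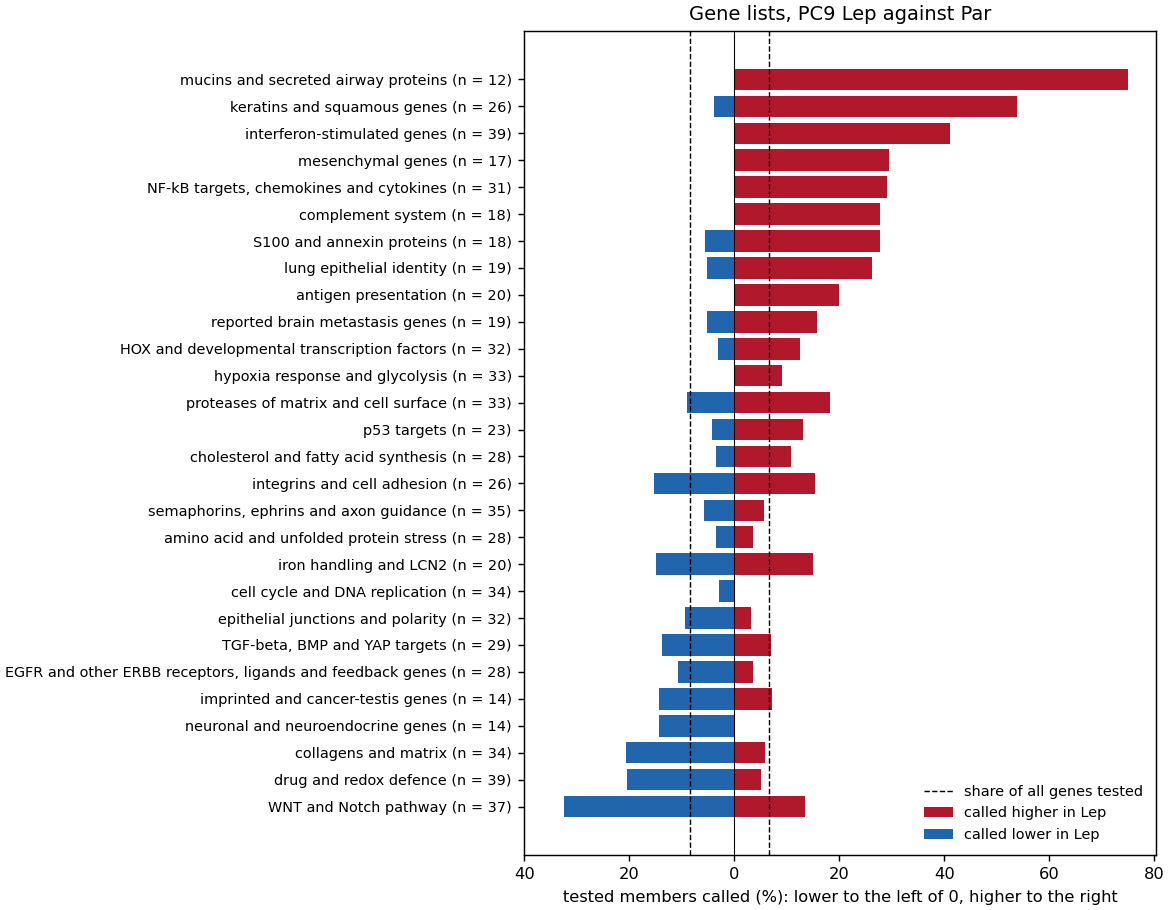
Bars give the percentage of the tested members of each of 28 gene lists called higher (red, right of 0) or lower (blue, left of 0) in Lep than in Par, with the number tested in brackets. Dashed lines mark the 6.65% higher and 8.49% lower over all genes; mucins and secreted airway proteins reach 75% higher and WNT and Notch genes 32.4% lower.

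Cholesterol and fatty acid synthesis genes separated the Lep libraries from each other. Of 28 such genes 26 were higher in Lep replicate 2 than in Lep replicate 1, and 10 (35.7%) were over 2-fold higher there, against 2.83% of all genes tested. The median log2 ratio of replicate 2 to replicate 1 was 0.89, against 0 over all genes. SCD, the stearoyl-CoA desaturase, had 2290 and 22700 normalized counts in Lep, against 1620, 2040 and 1680 in Par, with 42400 and 46300 in Int. INSIG1, the sterol sensor that retains SCAP in the endoplasmic reticulum, had 395 and 2060 in Lep, against 445, 419 and 381 in Par. SREBF1, a master transcription factor of lipid synthesis, had 3860 and 9640 in Lep, against 2100, 2590 and 2090 in Par. Lep replicate 1 was thus near Par and Lep replicate 2 nearer Int for SCD and INSIG1. Over all genes 6.65% were called higher in Lep than in Par and 8.49% lower. Set against Par, 3 of 28 members were called higher and 1 lower, but 9 higher and 1 lower without Lep replicate 1, and 0 higher and 2 lower without Lep replicate 2. SCD was at 2.03 on the log2 scale with both Lep libraries, at 3.68 with replicate 2 alone and at 0.37 with replicate 1 alone. INSIG1 was at 1.12 with both, at 2.31 with replicate 2 alone and at -0.07 with replicate 1 alone. Its call was weak: it was lost in 12 of 21 alternative fits, among them those leaving out any 1 Par, BrM or Int library. Its value in Lep replicate 1 lay within the Par values. SREBF1 was at 1.44 with both, at 2.10 with replicate 2 alone and at 0.78 with replicate 1 alone, and no longer called in the last case.

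Of all tested genes 18 had a mean of at least 200 in Lep and at least a 4-fold difference between its libraries. Those higher in Lep replicate 2 included SCD, INSIG1, CEACAM5, CEACAM6, SLC6A14, MAGEA1 and LINC00263. Higher in Lep replicate 1 were TNC, TGFB2, MSN, SPP1, C1S, ALPP, CES1, SPOCK1, EPB41L2 and IGFN1. MSN, the membrane-cytoskeleton linker moesin, stood at 16900 and 3350, and SPP1, the secreted phosphoprotein osteopontin, at 1080 and 193. Whether the pair came from separate animals is not stated, and the part of such a difference in these values was not tested.

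**Figure D5:**
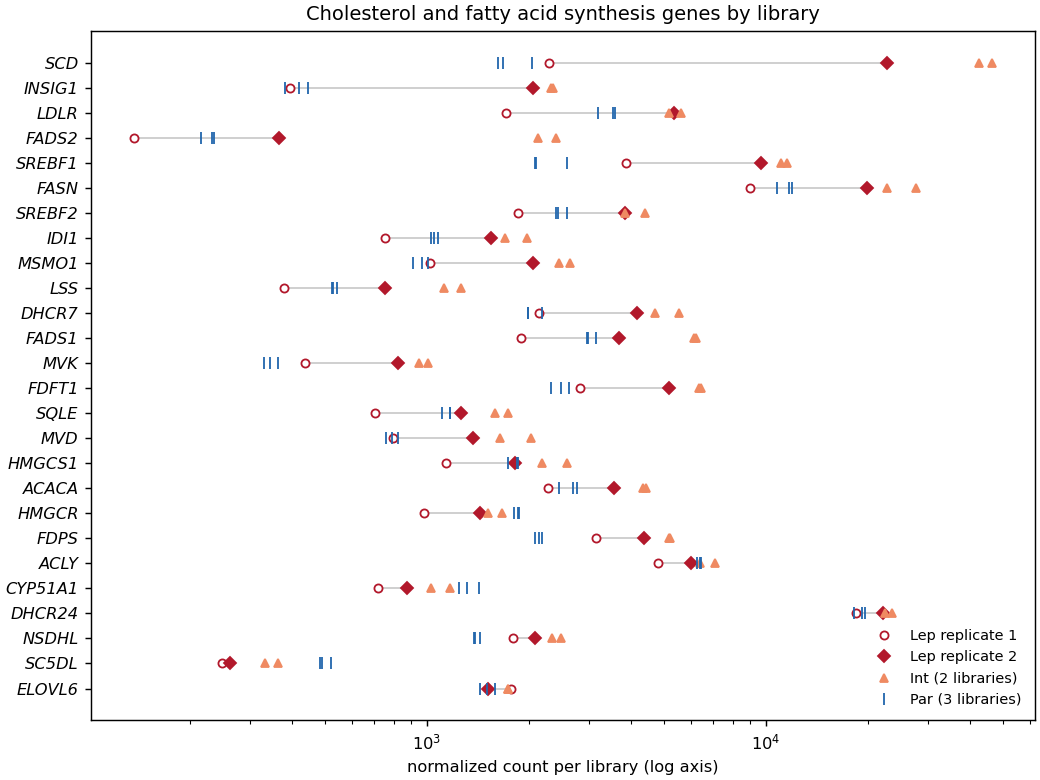
Normalized counts per library on a log axis for cholesterol and fatty acid synthesis genes with a mean of at least 100 in Lep or Par. Open circles are Lep replicate 1, filled diamonds Lep replicate 2, triangles the 2 Int libraries and vertical ticks the 3 Par libraries; for SCD the Lep libraries stand at 2290 and 22700.

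Between Lep and Int, the stages that lay together on the first principal component, 88 genes (0.608%) were called by limma on all 10 libraries, 33 (0.228%) higher in Lep and 55 (0.38%) lower. These counts were unstable, and the cause was not tested: with Lep and Int alone in the fit, 0 were called higher and 1 lower, and leaving out single libraries gave 13 to 160 higher and 13 to 211 lower, the highest counts without Lep replicate 1 and the lowest without Int replicate 2. IFI27 averaged 117 in Lep and 4.88 in Int, and TRIM31 858 in Lep and 140 in Int, both called. KRT13 averaged 300 in Lep and 74.5 in Int, and SPRR3 636 in Lep and 107 in Int, both called. Called lower, LCP1 averaged 50.2 in Lep and 768 in Int, GALNT14 11 in Lep and 113 in Int, and FADS2, a fatty acid desaturase, 252 in Lep and 2270 in Int. By contrast EGFR (-0.01), TFRC (0.08), LCN2 (0.01), JAG1 (0.03) and C3 (-0.39) had small log2 differences of Lep from Int and were not called.

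Set against BrM, the other metastatic derivative, Lep had 1134 genes (7.83%) called higher and 1562 (10.8%) lower. MUC5B averaged 3990 in Lep and 13.7 in BrM, 8.08 on the log2 scale, and SAA1 1070 in Lep and 4.1 in BrM. VIM averaged 38.8 in Lep and 1960 in BrM and was called lower in Lep, as was AXL, at 82.3 in Lep and 1170 in BrM. EGFR averaged 1730 in Lep and 13200 in BrM (-2.93, called). The comparisons with Par and with BrM share the Lep libraries and are not independent of each other.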

How the data were processed

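Per the labels, RNA of integrity number above 9.5 (500 ng) was made into libraries with the TruSeq RNA v2 kit, which does not mark strand, and read as paired 50-base reads. The PC9 table deposited by the authors holds signal values by gene symbol, that is, counts scaled by a size factor for each library. Tools in the submitters' processing notes are HTSeq 0.5.4, FastQC 0.11.3 and DESeq2; no source used here names an aligner. Every value was a whole multiple of 1 step per library (100% whole, tolerance 0.01), so reads were recovered, and size factors recomputed with DESeq2 1.42.0 deviated from the deposited scaling by 0%. Strand is not marked, so overlapping genes are uncertain.

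Genes at 10 or more in at least 2 libraries were tested with limma 3.58.1 (trend, two-sided, R 4.3.3) on log2(value + 1), which understates changes of low genes, with all 10 PC9 libraries in 1 fit and Benjamini-Hochberg adjustment over 14475 genes. On simulated data the test recovered 100% of 4-fold and 97% of 2.5-fold changes, with 3 false calls. The simulation gave all groups the same spread, changed only genes well above the filter and had no length trend. In the data the Lep pair spread more than the Par pairs, and transcript length moved with the groups. The simulated rates therefore do not give the error of Lep with Par. Named genes are the 15 largest called changes each way with no overlap of the groups and a higher-group mean of 100 or more, up to 4 called members of each list by the same mean, and 10 fixed genes; others were chosen after their values were seen. Some genes are not reported here. The members and lists were chosen with earlier results of these data known. Alternatives were edgeR 4.0.16 and DESeq2 on recovered reads, other pseudocounts, filters and scaling, a replicate block, the 2 groups alone, and leaving out each library; length and GC correction (GENCODE transcripts, 88.6% of genes matched) and thinning every library to 16792027 reads were added after seeing the data.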

Additional observations from a re-analysis of the deposited data

How the results depend on the processing

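Across the alternatives, 81 of 109 named calls for Lep with Par held in every one, and 28 were lost in at least 1, 20 of them with length and GC correction, 12 without Lep replicate 2 and 6 without Lep replicate 1. Of the called named genes 1 reversed: INSIG1 was at -0.07 without Lep replicate 2 and at 2.31 without Lep replicate 1, and the cause was not tested. Named genes that were not called also changed sign: AXL and VIM (0.34 and 0.11 without Lep replicate 2), CDH1 (up to 0.14) and MKI67 (0.29 length-corrected). Genes called higher in Lep than Par numbered 962, and 639 with a filter of 50 in 2 libraries, where fewer genes were tested; leaving out each of the 10 libraries gave 825 to 1170 higher and 1191 to 1313 lower. The share of calls that were higher was 43.9%, and 39.3% to 48.8% across alternatives. Replicate numbers do not pair these libraries (r of 0.03 and 0.07 for the same number in Lep and Par); with a replicate block 974 were higher and 1242 lower. Lep with Int was the least stable comparison: 68 genes were called higher with edgeR on recovered reads and 0 with Lep and Int alone in the fit, which called 1 lower, and leaving out each library gave 13 to 160 higher and 13 to 211 lower. With Lep and Par alone in the fit, the calls of TNC, SCD, INSIG1 and TGFB2 were lost. With 2 Lep libraries, 1 library decides the values named above beside its left-out result. Depth limits low genes: a gene at 0 in a library may have had up to 3 reads by counting error alone.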

Other observations

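Some genes outside the groups above, chosen after their values were seen, also moved. IGFBP3, a carrier protein of insulin-like growth factors, had 9020 and 8400 normalized counts in Lep, against 1080, 1250 and 995 in Par, a log2 fold change of 2.98. SCNN1B, a subunit of the epithelial sodium channel, had 175 and 407 in Lep, against 46.6, 39.1 and 31.1 in Par, and RHCG, an ammonia transporter, had 332 and 502 in Lep, against 47.8, 45.2 and 25.7 in Par. HIF1A, the oxygen-regulated transcription factor, had 1690 and 1990 in Lep, against 6130, 6260 and 6210 in Par, -1.76 on the log2 scale and -1.56 length-corrected. HSPA6, a heat-inducible chaperone, had 57.9 and 35.1 in Lep, against 531, 318 and 427 in Par. PDGFD, a platelet-derived growth factor, had 37.4 and 3.34 in Lep, against 161, 161 and 162 in Par, and its log2 fold change of -3.65 was -2.08 without Lep replicate 2. All 6 were called.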
